A study of Mus musculus with 20 samples.

Results

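The comparison described here is that of ARLmon with wild type kidney under testosterone, across all genes. It rests on 10 of the 20 libraries of the series, 5 per genotype, and on 15549 tested genes. The wild type testosterone group comprises libraries GC078607 to GC078611 and the ARLmon testosterone group GC078612 to GC078616. All mice were orchidectomised males on C57BL/6J, and the kidneys were taken after 4 days of replacement. ARLmon/Y mice carried the ARLmon allele, whose product is mutated in its ligand-binding domain so that it cannot dimerise through it, and wild type mice did not. The allele is carried in the whole animal, so kidney cells and every other androgen-responsive tissue of an ARLmon/Y mouse hold it. The other 10 libraries, from wild type (GC078602 to GC078606) and ARLmon/Y (GC078617 to GC078621) mice given vehicle after the same operation, are used only to set the genotype difference without testosterone beside that with it. The labels state no ages, no hormone dose and no separate animal for each library, and a p therefore reflects only how much these samples vary, which may be technical.

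The androgen receptor is a ligand-activated transcription factor. Testosterone or its reduced product dihydrotestosterone releases it from chaperones, and the receptor then binds DNA as a dimer at response elements built from repeats of a hexamer close to TGTTCT. The mouse kidney is among the most androgen-responsive tissues outside the reproductive tract: proximal tubule cells enlarge under androgens, and genes such as Kap and Odc1 are classical androgen-induced messages there. Many transporters and xenobiotic-metabolising enzymes of the mouse proximal tubule differ between males and females.

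Libraries held 8342000 to 15422018 reads on genes in wild type and 10236738 to 18609328 in ARLmon with testosterone, with 18781 to 19911 and 19654 to 20881 genes detected. Mitochondrial genes took 8.02% to 10.2% and 6.86% to 10.1% of the reads. On the first principal component of the 10 testosterone libraries, which held 55.8% of the variance, wild type lay between -46.0 and -36.4 and ARLmon between 30.5 and 50.3. Within ARLmon, GC078612 and GC078615 stood at the opposite ends of the next component (10.8%), and results that rest on either are given without it. Levels are given as CPM (reads of a gene relative to the library total, scaled by TMM factors) for each library in numerical order and as mean ± SD (n = 5 per group throughout). Differences are log2 values, ARLmon minus wild type, ± SE, with edgeR quasi-likelihood p-values adjusted over all tested genes by the Benjamini-Hochberg method. A gene is called when that adjusted p is below 0.05. The libraries are bulk tissue, in which fewer cells of a type and less RNA per cell cannot be told apart.

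The start regions of 5 genes that were much lower in ARLmon are shown, 3 that hold the receptor's DNA-binding hexamer and 2 that do not. They were picked for this contrast from 52 named genes, of which 39 had a promoter in the table and 9 of those held the hexamer. Each run gives the 250 bases before the start site from RefSeq (GRCm38.p6), 5′ to 3′ on the gene's strand, and capitals mark TGTTCT or its reverse complement AGAACA. In Cyp4b1 (chr4:115647722-115647971, minus strand) the hexamer begins 248 bases before the start, in Pzp (chr6:128526721-128526970, minus strand) 126 bases and in Apoh (chr11:108395047-108395296, plus strand) 118 bases before it. The windows of Kap (chr6:133853668-133853917, minus strand) and Slco1a1 (chr6:141946963-141947212, minus strand) do not contain these letters.
Cyp4b1: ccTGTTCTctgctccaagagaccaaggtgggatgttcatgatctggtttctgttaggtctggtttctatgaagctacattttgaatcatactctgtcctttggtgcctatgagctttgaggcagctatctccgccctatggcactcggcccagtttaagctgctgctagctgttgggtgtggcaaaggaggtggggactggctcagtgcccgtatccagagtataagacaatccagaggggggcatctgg
Pzp: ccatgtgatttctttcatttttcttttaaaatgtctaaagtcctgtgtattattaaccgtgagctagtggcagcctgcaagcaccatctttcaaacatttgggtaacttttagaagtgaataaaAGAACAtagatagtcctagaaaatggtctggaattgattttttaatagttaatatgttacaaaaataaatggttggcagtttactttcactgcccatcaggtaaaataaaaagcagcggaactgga
Apoh: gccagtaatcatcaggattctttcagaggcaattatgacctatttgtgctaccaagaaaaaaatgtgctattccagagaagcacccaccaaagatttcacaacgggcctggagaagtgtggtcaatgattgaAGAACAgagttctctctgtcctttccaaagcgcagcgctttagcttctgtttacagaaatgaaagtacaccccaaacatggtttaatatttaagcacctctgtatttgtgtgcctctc
Kap: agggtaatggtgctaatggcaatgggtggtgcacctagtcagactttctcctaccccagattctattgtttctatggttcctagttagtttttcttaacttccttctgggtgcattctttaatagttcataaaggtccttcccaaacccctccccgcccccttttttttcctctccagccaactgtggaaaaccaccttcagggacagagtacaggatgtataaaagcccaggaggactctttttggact
Slco1a1: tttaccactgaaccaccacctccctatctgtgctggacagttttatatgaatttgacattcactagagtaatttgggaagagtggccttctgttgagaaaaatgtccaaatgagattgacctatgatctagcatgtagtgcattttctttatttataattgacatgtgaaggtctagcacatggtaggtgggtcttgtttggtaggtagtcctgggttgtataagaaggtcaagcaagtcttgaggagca

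Over the window from 250 bases before to 50 bases after the start, the hexamer TGTTCT, searched on both strands, was found in 19% of all 32851 RefSeq promoters and in 12.9% of the 14050 promoters of tested genes. It was in 15.7% of 511 promoters of genes called at least 2-fold lower, in 14.8% of 453 of genes called at least 2-fold higher and in 12.6% of 9417 of genes that were not called. At 8-fold or more the shares were 20% of 80 lower and 18.2% of 33 higher. Promoters with fewer CG dinucleotides went with these shares: the median was 4.5 and 4 CG dinucleotides in the 8-fold sets against 20 in genes that were not called, and the part of base composition was not tested. The full androgen response element, in which the hexamer and its reverse complement stand 3 bases apart, was in 3 promoters of all, those of Acnat2 (log2 difference -0.69, adjusted p = 0.151), Sgk1 (0.77, adjusted p = 0.0987) and the untested Gm35041. Symbols of 393 of the 554 genes called at least 2-fold lower and 348 of the 503 higher matched the promoter table.

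Among 16 genes of the list on steroid receptor chaperones and coactivators, 1 was higher and 5 were lower in ARLmon, 37.5% of the list against 31.1% of all tested genes. These included Fkbp5 (chromosome 17, 28399094 to 28517527 in GENCODE M21 on GRCm38, as all positions below), an immunophilin of steroid receptor complexes and a known androgen and glucocorticoid target, at 178 ± 50.8 CPM in wild type and 29.3 ± 7.33 in ARLmon (-2.60 ± 0.29, adjusted p = 6.58e-07). The chaperone genes Hsp90aa1 (-0.67 ± 0.12) and Hsp90ab1 (-0.45 ± 0.10) were lower as well, and the coactivator gene Tgfb1i1 was higher (0.87 ± 0.20).

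In all, 4842 of the 15549 tested genes were called (31.1%), 2431 higher (15.6%) and 2411 lower (15.5%) in ARLmon. At least 2-fold differences were called for 1057 genes (6.80%), 503 higher and 554 lower, and at least 8-fold ones for 33 higher and 89 lower. For 3505 genes (22.5%) the 5 and 5 libraries did not overlap. Genes named below for their size, p or class were chosen from these, so their lack of overlap was set by the choice. The median over all tested genes was 0.04. The balance of higher and lower depends on the scaling: scaled by library size alone, the median was 0.28 and the split 5690 higher and 1213 lower. Changes below are relative to the TMM scaling, whose factors were 0.869 to 0.936 in wild type and 1.02 to 1.10 in ARLmon.

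Of all gene lists, that of androgen-induced genes had the median furthest from that of all tested genes. Of 25 genes listed as male-biased or androgen-induced in mouse kidney, 23 were lower and 1 was higher in ARLmon. That is 96% called against 31.1% of all tested genes, with a median of -3.29 against 0.04 over all genes. The list was chosen with earlier results of these data known, so its counts only describe it. Kap (chromosome 6, 133849851 to 133853762), which encodes the kidney androgen-regulated protein of the proximal tubule, was at 45478, 39180, 40679, 41127 and 30856 CPM in wild type and at 7242, 5545, 6425, 8160 and 4881 in ARLmon. The lowest wild type library stood well above the highest ARLmon library, and the difference was -2.61 ± 0.33 (adjusted p = 3.1e-06). Odc1 (chromosome 12, 17544794 to 17551505), the first enzyme of polyamine synthesis, was at 1637, 1330, 1457, 1552 and 1572 CPM in wild type against 165, 192, 168, 184 and 232 in ARLmon, a difference of -3.0 ± 0.12 (adjusted p = 1.24e-13). With vehicle, Odc1 was at 206 ± 32.4 CPM in wild type and 202 ± 24.2 in ARLmon, so the ARLmon libraries under testosterone lay near the level of both vehicle groups. The small RNA gene Gm22748 overlaps Odc1 on the same strand, and reads could be shared between them.

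Slco1a1 (chromosome 6, 141907282 to 141946962), an organic anion transporter of the proximal tubule brush border, differed most of all named genes with reads in every testosterone library. It was at 1717, 1260, 1377, 1704 and 1098 CPM in wild type and at 0.356, 0.234, 0.374, 0.253 and 0.523 in ARLmon, a difference of -12.00 ± 0.32 (adjusted p = 1.47e-16). Its level in ARLmon was also below that of orchidectomised wild type mice on vehicle (19.5 ± 3.14 CPM), and ARLmon mice on vehicle were at 0.321 ± 0.242. Hsd17b11 (chromosome 5, 103989762 to 104021919), a 17-beta-hydroxysteroid dehydrogenase of lipid droplets, was at 1071, 1003, 962, 1188 and 1007 CPM in wild type and at 111, 106, 104, 99.0 and 115 in ARLmon (-3.29 ± 0.10, adjusted p = 9.23e-16). Its spread within each group was small, and both vehicle groups (141 ± 14.9 and 115 ± 12.2) lay near the ARLmon testosterone level.

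**Figure D1:**
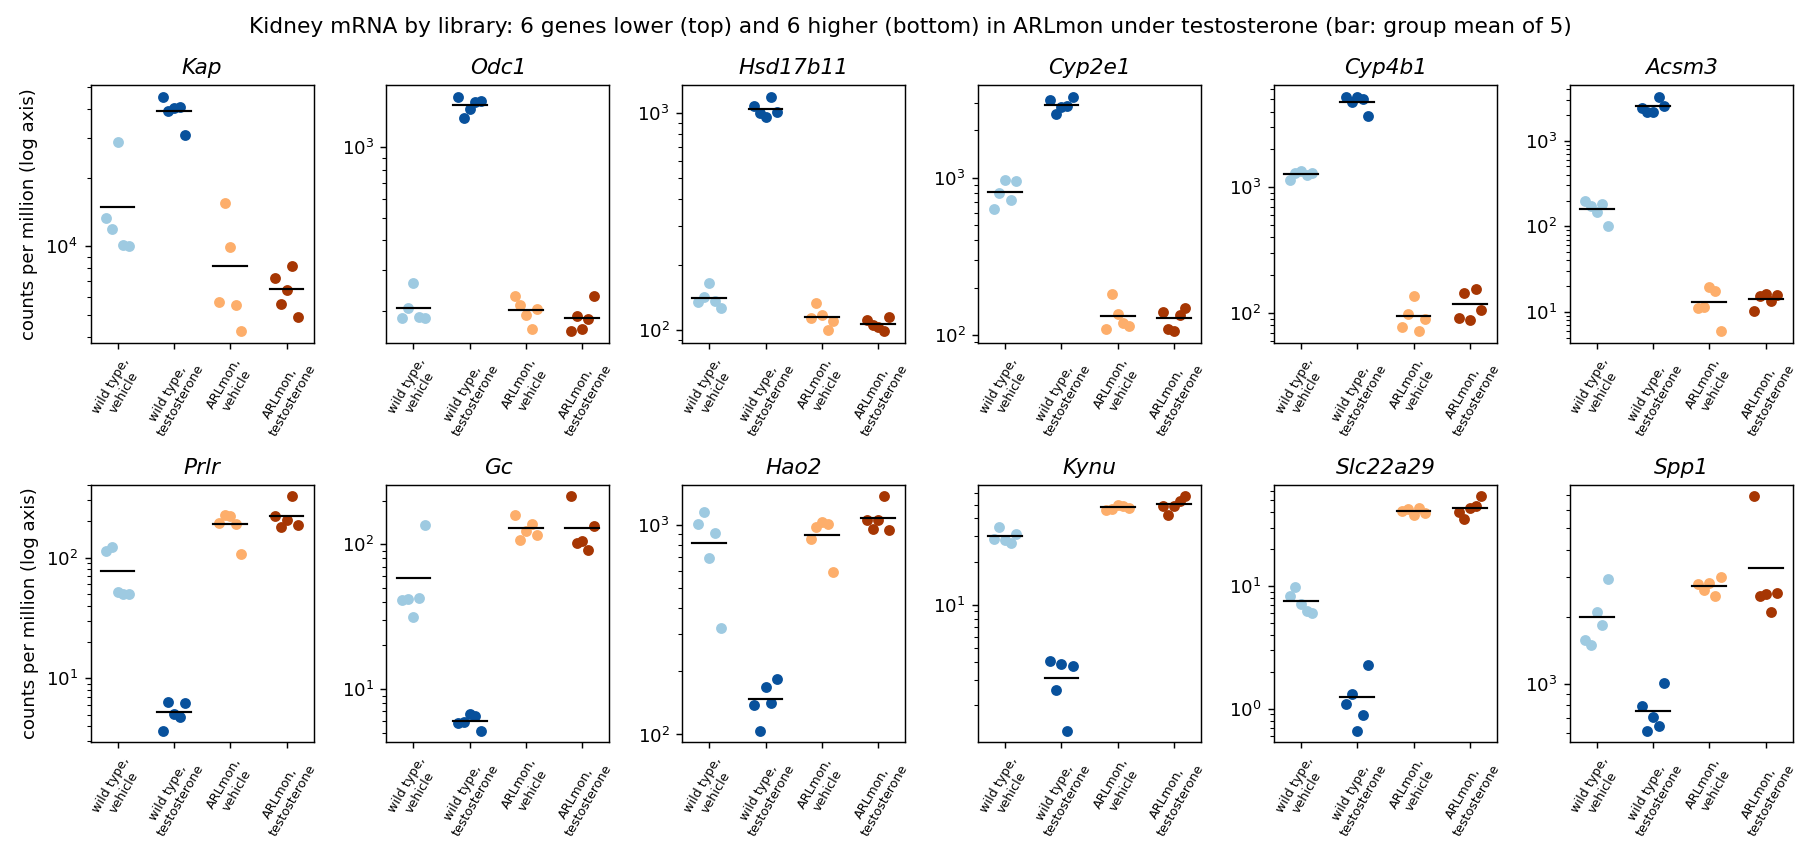
Level of 12 genes in each of the 20 libraries, in CPM on log axes, with a bar at the mean of each group of 5. In the top row the 5 wild type testosterone libraries lie above the 5 ARLmon testosterone libraries for Kap, Odc1, Hsd17b11, Cyp2e1, Cyp4b1 and Acsm3, and in the bottom row they lie below them for Prlr, Gc, Hao2, Kynu, Slc22a29 and Spp1.

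Cytochrome P450 genes of fatty acid and xenobiotic oxidation were among the lower genes. Cyp4b1 (chromosome 4, 115624725 to 115647723), whose start region is shown above, was at 5242, 4721, 5250, 5039 and 3683 CPM in wild type and at 91.9, 146, 87.5, 156 and 106 in ARLmon (-5.35 ± 0.21, adjusted p = 4.86e-14). Cyp2e1 (chromosome 7, 140763739 to 140774987), which oxidises ethanol and small solvents, was at 2912 ± 290 CPM against 127 ± 18.6 (-4.51 ± 0.17). Cyp4a12a, a fatty acid hydroxylase that forms the vasoconstrictor eicosanoid 20-HETE in male mice, was at 354 ± 65.6 against 2.23 ± 0.765 CPM (-7.35 ± 0.33), and Cyp2j13, a member of the arachidonic acid epoxygenase subfamily, at 671 ± 48.0 against 1.10 ± 0.859 (-9.23 ± 0.38). In none of these 4 genes did the groups overlap, which for all but Cyp4a12a was part of the rule that named them.

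Of 29 Cyp2, Cyp4 and epoxide hydrolase genes, 12 were lower and 8 higher (69.0% called against 31.1% of all tested genes). The list's median of -0.24 turned to 0.01 when only library size was scaled for, beside a median of 0.28 over all tested genes. The higher members were other genes of the same families. Cyp2d26 was at 54.2 ± 11.2 CPM in wild type and 354 ± 53.0 in ARLmon (2.71 ± 0.15), and the epoxygenase gene Cyp2c44 at 2.33 ± 0.21. The fatty acid hydroxylase gene Cyp4a14 was at 38.7, 8.83, 10.6, 15.6 and 238 CPM in wild type and 491, 397, 430, 442 and 467 in ARLmon. All 5 wild type libraries were lower, but GC078611 stood apart within them, and the difference of 2.83 ± 0.85 (adjusted p = 0.0148) was 4.60 without that library. Cyp2b10, a target of the xenobiotic receptor CAR, had no reads in ARLmon with testosterone and 15.1, 7.98, 8.09, 14.3 and 87.8 CPM in wild type. With a floor of 3 reads over the group it was at least 720-fold lower in ARLmon, and at least 301-fold lower without GC078611, the library with most of the reads.

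The amino acid transporter gene Slc7a13 (chromosome 4, 19818725 to 19842218), a gene of the proximal straight tubule, was at 893, 996, 908, 1265 and 965 CPM in wild type and at 0.889, 2.11, 3.37, 6.28 and 1.31 in ARLmon (-8.43 ± 0.42, adjusted p = 2.59e-12). Acsm3 (chromosome 7, 119760923 to 119787513), a mitochondrial medium-chain acyl-CoA synthetase, was at 2440, 2167, 2135, 3268 and 2529 CPM against 10.1, 15.3, 16.2, 13.4 and 15.6 (-7.47 ± 0.30). Neither gene's groups came within an order of magnitude of each other. The antisense gene Eri2 overlaps Acsm3.

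Further genes with the largest lower values are known from other organs. Pzp (chromosome 6, 128483567 to 128526720), which encodes a plasma proteinase inhibitor of the alpha-2-macroglobulin family, was at 227 ± 40.9 CPM in wild type and 0.471 ± 0.112 in ARLmon (-8.89 ± 0.31, adjusted p = 1.18e-14). Apoh, which encodes the phospholipid-binding plasma protein beta-2-glycoprotein 1, was at 19 ± 6.65 against 0.0924 ± 0.0657 CPM (-7.59 ± 0.92). The neuronal genes Synpr and Cntnap5a, for a synaptic vesicle protein and a contactin-associated protein, and the metallophosphoesterase gene Mpped1 were nearly without reads in ARLmon. Synpr had no reads and was at least 268-fold lower. Cntnap5a had 1 read, in GC078615, against 497, a ratio of 814 with a 95% counting interval of 145 to 32228, and Mpped1 had 2 reads against 773, a ratio of 633 with an interval of 175 to 5239, covering counting error only.

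The genes that carried the largest shares of reads lost in ARLmon were, besides Kap and Cyp4b1, Acsm2, Sepp1 and Cndp2. The acyl-CoA synthetase gene Acsm2 was at 9169 ± 967 CPM in wild type and 2261 ± 191 in ARLmon (-2.02 ± 0.14). Sepp1, the gene of the selenium carrier selenoprotein P, was at 5365 ± 751 against 1040 ± 106 (-2.37 ± 0.13), and Cndp2, which encodes a cytosolic dipeptidase, at 3277 ± 667 against 331 ± 27.6 (-3.31 ± 0.23). Chst11, which encodes a chondroitin sulfotransferase and was among the genes with the smallest p, was at 107 ± 8.81 against 11 ± 1.36 CPM (-3.28 ± 0.12, adjusted p = 1.67e-14). The only member of the androgen-induced list that went the other way was Abcc4, an efflux pump for urate and cyclic nucleotides, at 32.3 ± 2.93 CPM in wild type and 140 ± 8.25 in ARLmon (2.12 ± 0.18, adjusted p = 1.12e-08). The steroid reductase gene Akr1c21 did not pass (0.03 ± 0.24, adjusted p = 0.944).

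Genes listed as female-biased or androgen-lowered moved the other way as a group: 10 of 15 were higher and 3 lower in ARLmon, with a median of 2.32. That is 86.7% called against 31.1% of all tested genes. This list too was chosen with earlier results of these data known. Prlr (chromosome 15, 10177238 to 10349180), the prolactin receptor, was at 3.67, 6.41, 5.04, 4.80 and 6.24 CPM in wild type and at 220, 182, 208, 323 and 186 in ARLmon (5.41 ± 0.32, adjusted p = 3.54e-11). Kynu (chromosome 2, 43555329 to 43682715), kynureninase of tryptophan breakdown, was at 3.11 ± 1.16 against 50.1 ± 5.44 CPM (4.06 ± 0.18), and Hao2 (chromosome 3, 98874521 to 98893239), a peroxisomal hydroxyacid oxidase, at 147 ± 30.3 against 1071 ± 170 (2.87 ± 0.25). The libraries of the genotypes did not overlap for these 3 genes, which was part of the rule that named them. The 3 listed genes that were lower were Cyp2d9 (-2.91 ± 0.19), a steroid 16-alpha-hydroxylase better known as male-biased in liver, Cyp2a4 (-1.78 ± 0.25), a steroid 15-alpha-hydroxylase, and the anion transporter gene Slco1a6 (-0.93 ± 0.18).

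The largest higher value belonged to the glucuronosyltransferase gene Ugt1a2 (chromosome 1, 88200601 to 88218997), at 0.272, 0, 0, 0.221 and 0.594 CPM in wild type and at 204, 181, 232, 274 and 258 in ARLmon (9.89 ± 0.42, adjusted p = 1.57e-13; 10.64 without GC078611). Wild type with vehicle lay between them at 5.06 ± 1.94 CPM and ARLmon with vehicle at 240 ± 61.0. Ugt1a2 shares exons with the other Ugt1a genes, so that the reads of Ugt1a2, Ugt1a10 (4.42 ± 0.53; 5.34 without GC078610) and Ugt1a1 (3.41 ± 0.38) are uncertain among them. Gc (chromosome 5, 89417522 to 89457898), the vitamin D-binding protein, was at 5.84, 5.92, 6.76, 6.50 and 5.15 CPM in wild type and at 214, 101, 106, 91.5 and 134 in ARLmon (4.42 ± 0.37). In vitamin D handling the activating enzyme gene Cyp27b1 was higher as well, at 3.44 ± 2.25 against 17.8 ± 9.0 CPM (2.33 ± 0.49, adjusted p = 0.0011), while the receptor gene Vdr differed little (-0.28 ± 0.10, adjusted p = 0.0404; not called with any of 6 single libraries left out).

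The amino acid exchanger gene Slc7a12 was at 1.49, 1.09, 1.19, 0.812 and 5.94 CPM in wild type and at 46.6, 47.6, 48.0, 204 and 23.9 in ARLmon. GC078611 and GC078615 stood highest in their groups, and the difference of 5.11 ± 0.68 was 6.06 without the former and 4.27 without the latter. The phosphate and urate transporter relative Slc17a2 was at 0.140 ± 0.106 against 9.68 ± 4.85 CPM (5.95 ± 0.53), the bile acid conjugating enzyme gene Baat at 0.637 ± 0.210 against 10.7 ± 2.47 (4.05 ± 0.26), and Slc22a29, of the organic anion transporter family, at 1.25 ± 0.626 against 43.5 ± 6.78 (5.10 ± 0.21). Groups did not overlap in any of these, which was part of the rule that named them.

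**Figure D2:**
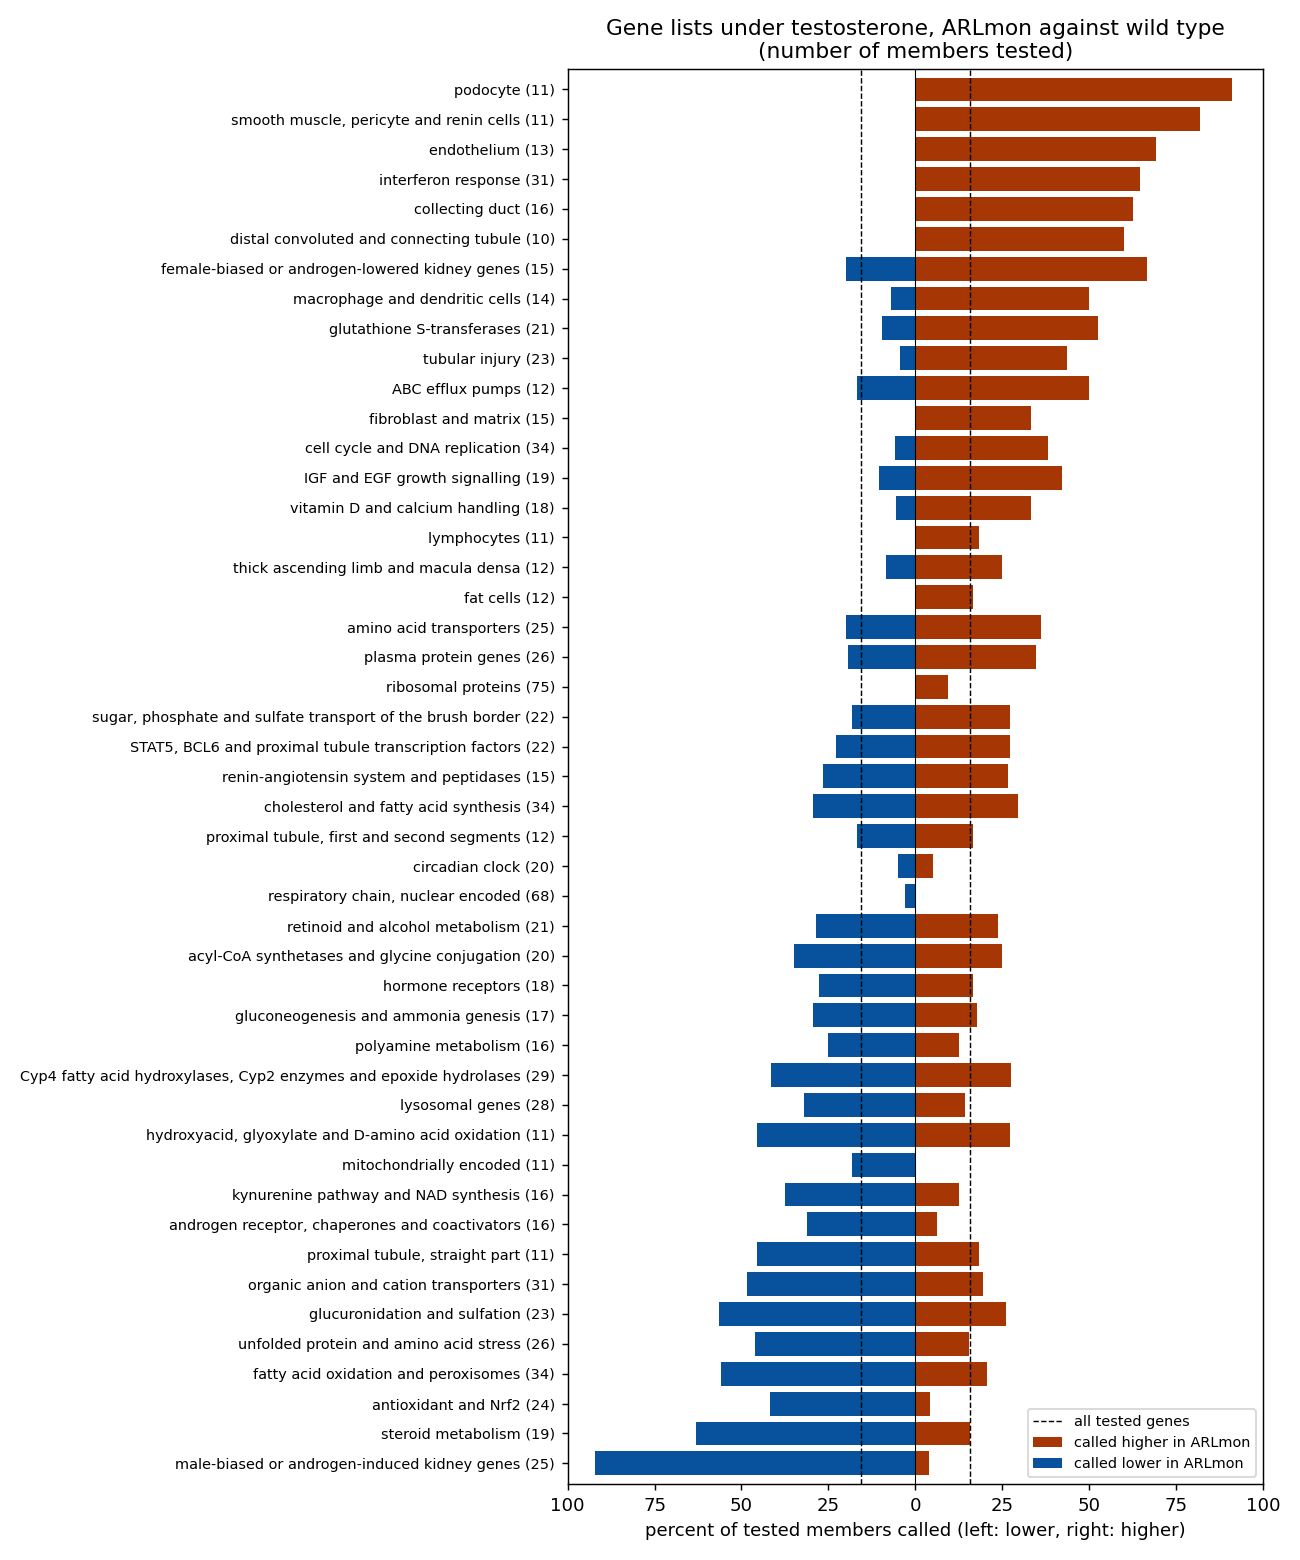
Percent of the tested members of each gene list called higher (right, brown) or lower (left, blue) in ARLmon than in wild type under testosterone, with the number of members tested in parentheses and dashed lines at the 15.6% and 15.5% of all tested genes. Podocyte and smooth muscle markers and interferon response genes extend to the right only, and male-biased genes, with 23 of 25 lower, extend furthest to the left.

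Transport and conjugation genes of the proximal tubule were called in both directions. Of 31 organic anion and cation transporter genes, 15 were lower and 6 higher (67.7% called against 31.1% of all tested genes, median -0.72). The basolateral organic anion transporter gene Slc22a6 was at 1466 ± 43.0 CPM in wild type and 459 ± 44.8 in ARLmon (-1.68 ± 0.13), while Slc22a8, which serves the same membrane, was at 264 ± 79.6 against 1055 ± 116 (2.00 ± 0.23). Slco3a1 (-2.72 ± 0.14) and Slc22a30 (-4.64 ± 0.32) were lower. Of 12 ABC efflux pump genes 6 were higher and 2 lower (66.7% called). The higher ones included Abcc3 (3.59 ± 0.797 to 50.2 ± 23.9 CPM, 3.81 ± 0.35) and the P-glycoprotein genes Abcb1b (2.85 ± 0.28) and Abcb1a (2.15 ± 0.24). Abcc2 (-0.68 ± 0.19) and Abcg2 (-0.41 ± 0.09) were lower.

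Of 25 amino acid transporter genes 9 were higher and 5 lower (56% called against 31.1% of all tested genes, median 0.35). The heavy and light chains of a basolateral exchanger, Slc3a2 and Slc7a8, were at 149 ± 6.16 against 304 ± 36.4 CPM (1.02 ± 0.11) and at 160 ± 16.2 against 358 ± 27.1 (1.16 ± 0.10). Lower members beside Slc7a13 included Slc1a4 (-1.39 ± 0.22) and the glutamate transporter gene Slc1a1 (-0.64 ± 0.12). The phosphate transporter gene Slc34a3 of the brush border was at 36.0 ± 5.52 against 88.5 ± 13.1 CPM (1.30 ± 0.13), and the monocarboxylate transporter gene Slc5a8 was lower (-2.17 ± 0.21).

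Of 23 glucuronidation and sulfation genes 13 were lower and 6 higher (82.6% called against 31.1% of all tested genes, median -0.72). Ugt2b38 was at 2126 ± 409 CPM in wild type and 159 ± 39.3 in ARLmon (-3.74 ± 0.19), Ugt8a at 183 ± 23 against 11 ± 3.28 (-4.04 ± 0.19) and Ugt2b37 at 328 ± 77.7 against 5.43 ± 7.35 (-5.99 ± 0.51; -7.20 without GC078612). The glutathione S-transferases went the other way, with 11 of 21 higher and 2 lower (61.9% called, median 0.65). Gsta2 was at 27.7 ± 10.2 against 277 ± 72.5 CPM (3.33 ± 0.23), and Gsta4, which clears lipid aldehydes, at 25 ± 3.47 against 125 ± 36.5 (2.32 ± 0.21). The 2 lower transferases were Gstz1 (-0.39 ± 0.09) and the low-level Gstp2, whose call was lost with any of 7 single libraries left out and whose sign turned in the log2 table that the authors deposited.

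In steroid metabolism 12 of 19 genes were lower and 3 higher (78.9% called against 31.1% of all tested genes, median -0.81). Hsd11b1 (chromosome 1, 193221634 to 193264075), which regenerates active glucocorticoid, was at 487, 436, 434, 605 and 330 CPM in wild type and at 43.9, 52.8, 60.7, 36.7 and 33.8 in ARLmon (-3.33 ± 0.18, adjusted p = 6.91e-12). Cyp7b1, the oxysterol and androstanediol 7-alpha-hydroxylase, was at 279 ± 110 against 3.46 ± 0.872 CPM (-6.36 ± 0.32). Hsd11b2, which inactivates glucocorticoid in the collecting duct, was among the 3 higher genes (0.61 ± 0.15), with Hsd17b14 (2.53 ± 0.27). Polyamine metabolism beside Odc1 moved little: of 16 genes 4 were lower and 2 higher (37.5% called). The other called members differed by between -0.56 (Mat2a, named after its value was seen) and 0.80 (Agmat, not called without any 1 of GC078608, GC078611, GC078612 and GC078616).

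Fatty acid oxidation and peroxisomal genes were lower in 19 and higher in 7 of 34 cases (76.5% called against 31.1% of all tested genes, median -0.34). With library size as the only scaling 10 of the 34 were higher and 10 lower, beside 5690 and 1213 of all 15549 tested genes. Amacr, a racemase of branched fatty acid and bile acid oxidation, was at 582 ± 38.3 CPM in wild type and 95.0 ± 3.22 in ARLmon (-2.61 ± 0.11). Higher members included Acaa2 (1.08 ± 0.14) and the trifunctional protein genes Hadha (0.47 ± 0.10) and Hadhb (0.45 ± 0.10). In lipid synthesis 10 of 34 genes were higher and 10 lower (58.8% called). The sterol pathway gene Hmgcs1 (-1.41 ± 0.16) and the malic enzyme gene Me1 (-1.43 ± 0.11) were lower, and the elongase gene Elovl6 was higher (1.47 ± 0.19). Of 68 nuclear genes of the respiratory chain 2 were called, both lower: Cycs, the cytochrome c gene, at 106 ± 8.33 against 52.1 ± 7.13 CPM (-1.02 ± 0.12), and Ndufv1 (-0.33 ± 0.12), whose call was lost with any of 7 single libraries left out (adjusted p up to 0.086). That is 2.94% of the list against 31.1% of all genes. With library size as the only scaling 19 of the 68 were higher and 1 lower. Of all 15549 tested genes 5690 were then higher and 1213 lower.

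Regulators of the proximal tubule were called in both directions. Bcl6 (chromosome 16, 23965052 to 23988852), a transcriptional repressor that opposes STAT5 at shared target genes, was at 98.9, 120, 209, 178 and 150 CPM in wild type and at 28.6, 17, 30.8, 17.4 and 15.2 in ARLmon (-2.80 ± 0.35, adjusted p = 3.11e-06), without overlap. The bile acid receptor gene Nr1h4 was at 192 ± 38.1 against 87.2 ± 6.28 CPM (-1.14 ± 0.13). The STAT5 target Cish was higher, at 20.2 ± 11.9 against 76.2 ± 26.6 CPM (1.91 ± 0.36, adjusted p = 0.000369), with GC078611 at 41.1 CPM above the rest of its group. Among hormone and growth factor receptors beside Prlr, Igf1r (-1.10 ± 0.17), Met (-1.0 ± 0.12) and the growth hormone receptor gene Ghr (-0.93 ± 0.20) were lower, and the glucagon receptor gene Gcgr was higher (0.61 ± 0.15). Of the 22 listed factors 6 were higher and 5 lower, and of 18 hormone receptors 3 and 5. That is 50% and 44.4% called against 31.1% of all tested genes.

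In the renin-angiotensin system, Ace, the angiotensin-converting enzyme gene, was at 302, 334, 285, 417 and 298 CPM in wild type and at 66.8, 67.4, 63.2, 144 and 62.7 in ARLmon (-2.01 ± 0.27, adjusted p = 7.22e-06). Agt, which encodes the angiotensinogen precursor, was higher at 51.8 ± 6.65 against 76.6 ± 11.1 CPM (0.56 ± 0.15, adjusted p = 0.00856), a call that was lost with GC078612 and GC078615 both left out. The renin gene Ren1, named after its value was seen, was higher (0.72 ± 0.24, adjusted p = 0.0248). Ggt1, the brush border enzyme that breaks down glutathione, was at 1874 ± 85.2 against 766 ± 82.5 CPM (-1.29 ± 0.16). Of 24 antioxidant genes 10 were lower and 1 higher, 45.8% called against 31.1% of all tested genes (7 called in all without GC078614). Endoplasmic reticulum chaperones and stress genes were lower in 12 and higher in 4 of 26 cases (61.5% called), led by Edem1 (-1.45 ± 0.11), which marks misfolded glycoproteins for degradation. When only library size was scaled for, 5690 of all 15549 tested genes were higher and 1213 lower. The antioxidant count was then 4 lower and 3 higher of 24, and the stress gene count turned to 2 lower and 6 higher of 26. The split also turned for polyamine genes (1 lower and 4 higher of 16) and hormone receptors (3 lower and 8 higher of 18). It became uneven for lipid synthesis (4 lower and 21 higher of 34). No ABC pump and no glutathione S-transferase was then lower. Among 16 receptor chaperones and coactivators 2 were then lower and 1 higher. How far these lists followed the shift of all genes was not tested.

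**Figure D3:**
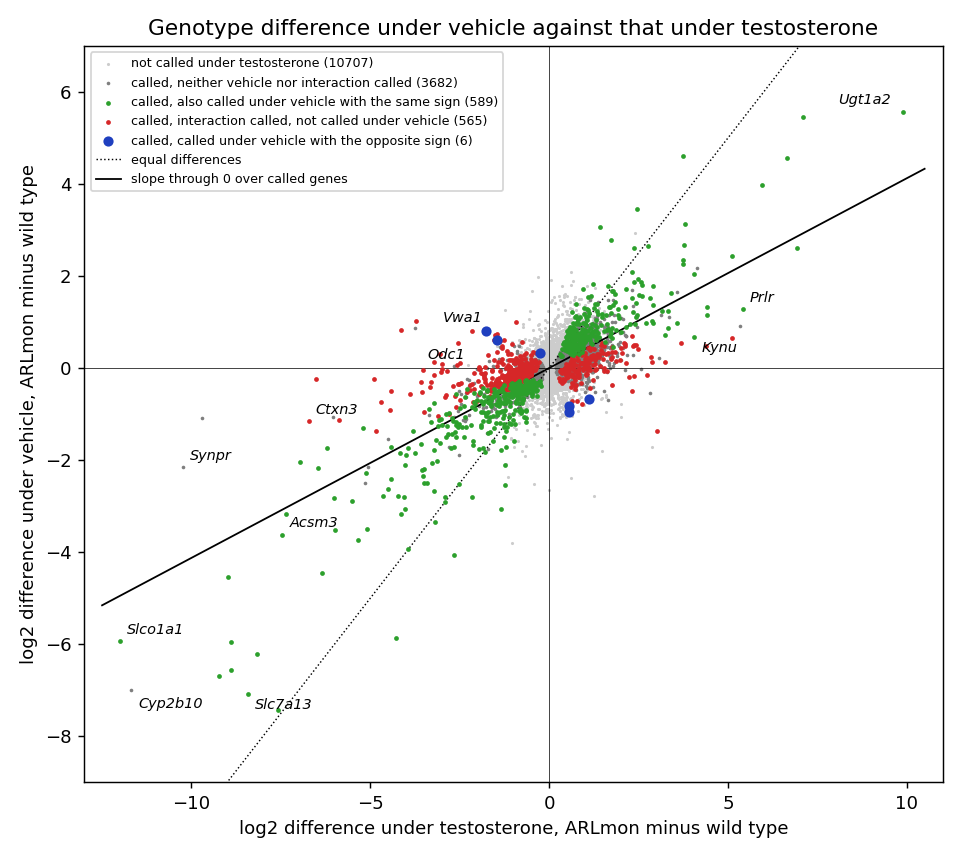
Genotype difference under vehicle (vertical, log2) against that under testosterone (horizontal, log2) for 15549 genes, coloured by class, with the line of equal differences dotted and the fitted slope of 0.412 drawn through 0. Odc1 lies near 0 on the vertical axis, Slc7a13 lies close to the dotted line, and Vwa1 is among the 6 genes of opposite sign.

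The 10 vehicle libraries showed how much of the genotype difference was present without testosterone. The vehicle contrast shares no library with the testosterone contrast. Under vehicle 680 genes were called (4.37%), 310 higher (1.99%) and 370 lower (2.38%). At least 2-fold differences were called for 1.58%, and the libraries did not overlap for 4.57% of genes. Of the 680 genes, 595 (87.5%) were also called under testosterone, which is 12.3% of the genes called there. Of the 4842 genes called under testosterone, 88.6% had the same sign under vehicle, against 65.8% of the genes not called. Over the called genes the vehicle difference had a slope of 0.412 ± 0.0244 (jackknife SE over libraries) per unit of testosterone difference. The slope ranged from 0.396 to 0.421 when each library was left out in turn. Because the genes were called on the testosterone difference, the slope is a description of them.

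A test of the difference between the 2 genotype effects (the interaction) called 741 genes (4.77%; 1.42% upwards, 3.34% downwards and 2.10% at 2-fold or more), of which 730 were also called under testosterone. In 723 of these the genotype difference was larger under testosterone, which choosing them by both calls favours, since both use the testosterone libraries. By these tests the 4842 genes fell into 4 classes. The largest, with 3682 genes (2001 higher, 1681 lower), passed neither the vehicle nor the interaction test. For them a dependence of the genotype difference on testosterone was not detectable here.

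Another 589 genes (254 higher, 335 lower) were called under vehicle with the same sign, with median sizes of 1.09 under testosterone and 0.76 under vehicle. The interaction was called for 159 of them. For Slco1a1 the differences were -12.00 under testosterone and -5.94 under vehicle, with an interaction of -6.06 ± 0.66 (adjusted p = 3.76e-06). Cyp4b1 differed by -3.74 ± 0.19 under vehicle and Cyp2e1 by -2.62 ± 0.15. For Slc7a13 the vehicle difference was -7.09 ± 0.42, with 170 ± 64.9 CPM in wild type and 1.25 ± 0.184 in ARLmon, and the interaction was not called (-1.34 ± 0.55, adjusted p = 0.209). Cyp2d9 (-2.81 ± 0.19 under vehicle) and Cyp2a4 (-1.81 ± 0.25) differed by about the same amount under both treatments, with interactions of -0.10 ± 0.26 and 0.03 ± 0.34.

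A class of 565 genes (173 higher, 392 lower) had a called interaction and no call under vehicle, with median sizes of 0.93 and 0.17. Odc1 belonged to it, with an interaction of -2.97 ± 0.17 (adjusted p = 2.69e-10), as did Kap (-1.76 ± 0.44, adjusted p = 0.0207), for which the vehicle levels spread widely (14797 ± 7845 and 8184 ± 4642 CPM), and Hsd17b11 (-3.0 ± 0.13). The lysosomal beta-glucuronidase gene Gusb, a long-known androgen-induced kidney gene, was at 125 ± 19.5 CPM in wild type and 32.4 ± 3.02 in ARLmon with testosterone and at 36.4 ± 3.58 and 36.0 ± 2.51 with vehicle (interaction -1.93 ± 0.15). The coenzyme A hydrolase gene Nudt19 was at 2053 ± 301 against 286 ± 63.5 CPM with testosterone and 264 ± 44.1 against 253 ± 80.6 with vehicle (-2.78 ± 0.27). On the other side stood Hao2 (2.74 ± 0.34), Slc7a12 (4.46 ± 0.85), Abcb1b (2.61 ± 0.37) and the potassium channel subunit gene Kcnip2 (3.11 ± 0.41).

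The remaining 6 genes were called under both treatments with opposite signs. Vwa1, which encodes a matrix protein, was at 132, 153, 123, 150 and 132 CPM in wild type and at 45.1, 33.6, 39.5, 39.7 and 44.4 in ARLmon with testosterone (-1.77 ± 0.16), but at 27.2 ± 8.01 and 47.6 ± 9.62 with vehicle (0.80 ± 0.16). Slc18a1, a vesicular monoamine transporter gene, showed the same order, with 525 ± 77.6 against 189 ± 23.7 CPM with testosterone (-1.47 ± 0.11) and 121 ± 14.4 against 186 ± 12.6 with vehicle (0.61 ± 0.11). Slc41a1, a magnesium transporter gene, differed by -0.25 ± 0.09 and 0.34 ± 0.09, the former not called with any of 7 single libraries left out. Agt and the carboxylesterase gene Ces2e went from lower in ARLmon under vehicle (-0.82 ± 0.15 and -0.68 ± 0.15) to higher under testosterone (0.56 ± 0.15 and 1.13 ± 0.17). So did the methyltransferase gene Mettl21b (-0.96 ± 0.20 and 0.55 ± 0.21), which was chosen after its values were seen, to complete the class. Mettl21b was low with testosterone, at 2.88 ± 0.623 against 4.20 ± 1.22 CPM, and its call lay near the threshold (adjusted p = 0.0469).

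Side by side with orchidectomised wild type mice on vehicle, which lack both testosterone and the allele, ARLmon kidneys under testosterone differed in 471 genes (3.03%), 195 higher (1.25%) and 276 lower (1.78%), and 1.23% at 2-fold or more. This contrast shares the ARLmon libraries with the main comparison. Odc1 (-0.13, adjusted p = 0.646), Gusb (-0.17, adjusted p = 0.477) and Hao2 (0.39, adjusted p = 0.47) did not pass in it. Slco1a1 (-5.80), Acsm3 (-3.51), Cyp4b1 (-3.43) and Ugt1a2 (5.51) did, with adjusted p-values of 2.44e-11, 4.91e-09, 5.99e-11 and 2.44e-11.

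Markers of several other kidney cell types were higher in ARLmon, and a marker set of 1 tubule segment was lower. Of 11 podocyte markers 10 were called, all higher (median 0.79), 90.9% against 15.6% of all tested genes called higher. Among them were the slit diaphragm gene Nphs1 (0.93 ± 0.13) and the surface sialomucin gene Podxl (191 ± 13.6 to 330 ± 29.5, 0.79 ± 0.11). Of 11 smooth muscle, pericyte and renin cell markers 9 were higher (81.8%, median 0.67), such as Rgs5 (0.71 ± 0.13) and Acta2 (0.79 ± 0.16). Of 13 endothelial markers 9 were higher (69.2%, median 0.51), such as Eng (0.51 ± 0.11). No marker of these 3 lists was lower. Their summed level ran from 487 to 574 CPM in wild type and from 686 to 860 in ARLmon for podocytes, from 405 to 480 against 596 to 796 for smooth muscle and from 576 to 633 against 714 to 928 for endothelium. With vehicle the wild type sums were 563 to 760, 547 to 861 and 571 to 903 CPM in the same order. These overlapped the sums of ARLmon with testosterone. The ARLmon sums with vehicle were 702 to 910, 575 to 736 and 751 to 909 CPM.

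Of 16 collecting duct markers 10 were higher (62.5% against 15.6% of all tested genes, 6 without GC078613). Of 10 markers of the distal convoluted and connecting tubule 6 were higher (60%, 3 without GC078613 or without GC078616). They included the sodium chloride cotransporter gene Slc12a3 (846 ± 101 to 1430 ± 291 CPM, 0.76 ± 0.12). Under vehicle the same lists had 1 (podocyte), 0 (smooth muscle), 0 (endothelium), 2 (collecting duct) and 2 (distal tubule) members called higher. In the same order that is 9.09%, 0%, 0%, 12.5% and 20%, against 1.99% of all tested genes. Interaction calls in these lists numbered 1 for podocytes (Podxl, 0.52 ± 0.15, adjusted p = 0.0442), 2 for smooth muscle and 0 for the other 3. All were upwards, 9.09% of the podocyte and 18.2% of the smooth muscle list against 1.42% of all tested genes. Of 12 thick ascending limb and macula densa markers 3 were higher and 1 lower, 33.3% called against 31.1% of all tested genes. Their sums overlapped, at 3397 to 5258 CPM in wild type and 4266 to 6612 in ARLmon with testosterone.

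Proximal straight tubule markers were lower in 5 and higher in 2 of 11 cases (63.6% called against 31.1% of all tested genes, median -0.72). Their summed level was 6440 to 8050 CPM in wild type and 2199 to 3097 in ARLmon with testosterone, against 2509 to 3869 and 1563 to 2825 with vehicle. The lower markers were Slc7a13, Cyp7b1, Slc22a30, the phospholipid flippase gene Atp11a (2981 ± 285 to 355 ± 155 CPM, -3.07 ± 0.27) and Slc16a9 (-0.94, named after its value was seen), and the higher ones the glucose transporter gene Slc5a1 (0.37 ± 0.11; not called with GC078612 and GC078615 both left out) and Slc22a13 (0.53 ± 0.19), whose call was lost by voom and with any of 7 single libraries left out (adjusted p up to 0.142). All but 2 of the list's 11 genes are also in other lists, and Slc7a13, Cyp7b1, Slc22a30 and Atp11a are also in the androgen-induced list. Markers of the earlier proximal tubule summed to 13636 to 16271 CPM in wild type and 13094 to 15161 in ARLmon, and 2 of 12 were higher and 2 lower (33.3% called). The part of cell proportions in the differences of single genes was not tested.

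**Figure D4:**
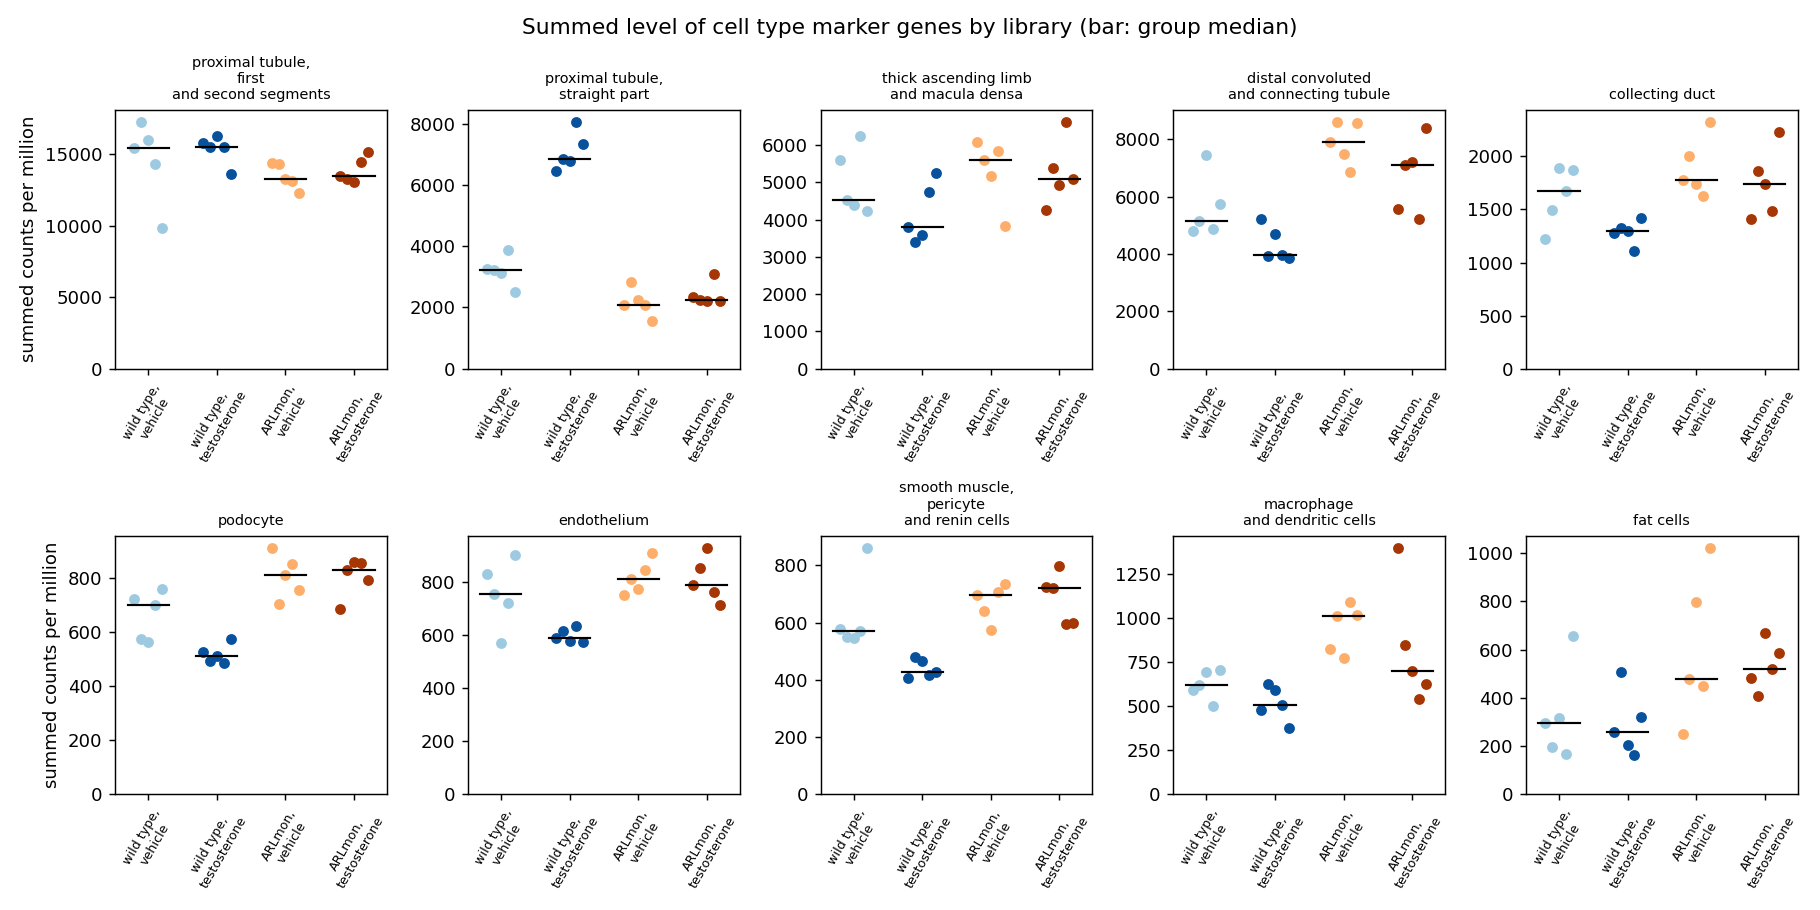
Summed CPM of the marker genes of 10 cell types or segments in each of the 20 libraries, with a bar at each group's median of 5. Podocyte sums run from 487 to 574 CPM in wild type and from 686 to 860 in ARLmon under testosterone, and sums of the straight proximal tubule from 6440 to 8050 and from 2199 to 3097.

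Interferon response genes, which cells switch on after type I or II interferon signalling, were called only upwards in ARLmon under both treatments. Under testosterone 20 of 31 were called, all higher, against 15.6% of all genes (median 0.74 against 0.04 over all genes). In 8 of the 31 the libraries did not overlap, near the 22.5% of all genes. Under vehicle 24 of 31 were called, all higher (77.4% against 1.99% of all tested genes, median 0.98). No interaction was called in the list, against 4.77% of all tested genes. The guanylate-binding protein gene Gbp3 was at 8.97, 10, 9.94, 9.74 and 4.95 CPM in wild type and at 32, 30.7, 26.9, 47.8 and 17.8 in ARLmon (1.84 ± 0.26, adjusted p = 1.21e-05), without overlap. Ifi27 was at 35.9 ± 7.24 against 75.7 ± 9.98 CPM (1.08 ± 0.21), the RNA sensor gene Ddx58 at 0.59 ± 0.11 and Irf9, part of the interferon-activated transcription complex, at 0.69 ± 0.15. The count was 10 without GC078611, the lowest wild type library for 14 of the 20 genes, 12 without GC078610 or without GC078613, and 11 without both GC078612 and GC078615. Genes of the antigen-presenting cells in the macrophage list stood higher as well, at 7 higher and 1 lower of 14 (57.1% called against 31.1% of all tested genes). The list had 8 called in all, 4 without GC078610 or GC078612 and 5 without GC078609. Its sum ran from 374 to 627 CPM in wild type and from 541 to 1398 in ARLmon (to 849 without GC078612).

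**Figure D5:**
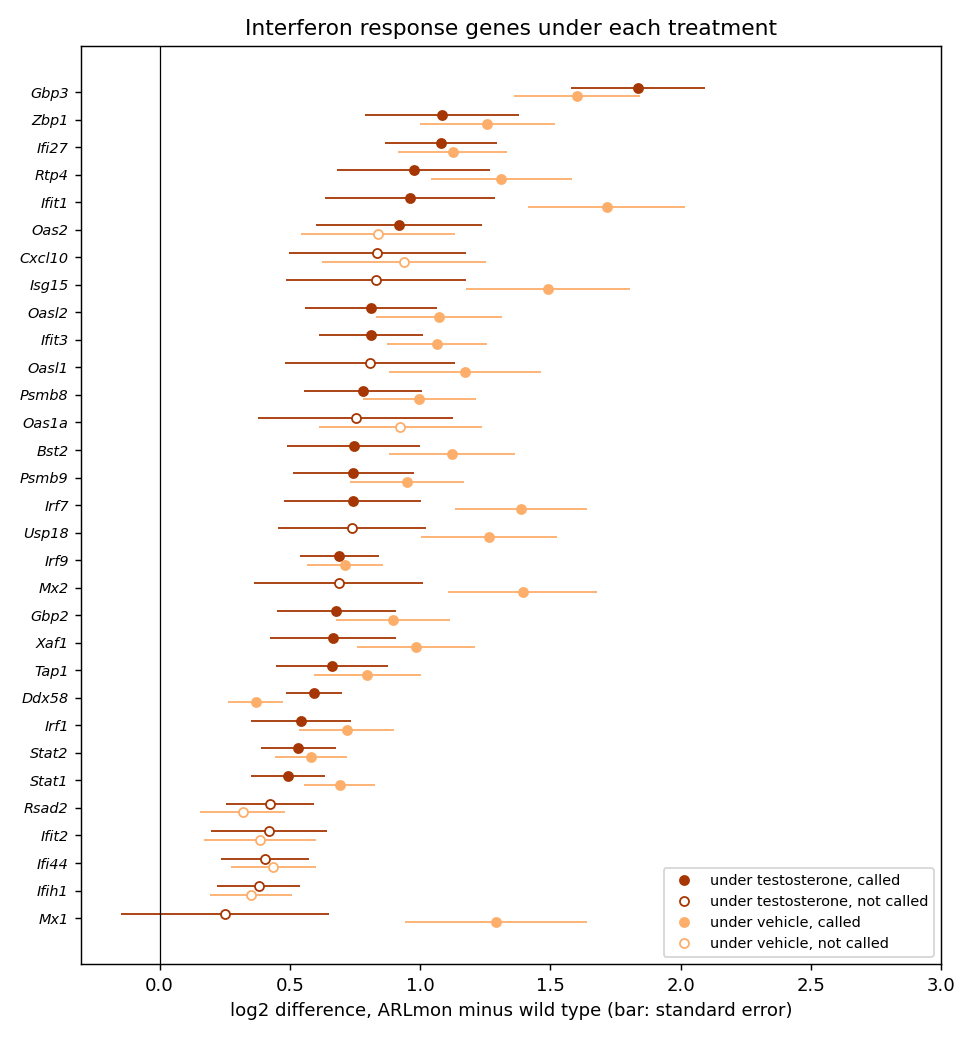
Log2 difference of ARLmon minus wild type for each of 31 interferon response genes under testosterone (dark) and under vehicle (light), with bars of 1 standard error and filled points for called genes. Under testosterone 20 points are filled and under vehicle 24, all to the right of 0, and Gbp3 lies furthest right under testosterone.

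Tubular injury genes were higher in 10 and lower in 1 of 23 cases (47.8% called against 31.1% of all tested genes, median 1.24). Spp1 (chromosome 5, 104435118 to 104441050), the osteopontin gene, was at 796, 616, 708, 644 and 1011 CPM in wild type and at 6924, 2482, 2527, 2103 and 2543 in ARLmon (2.13 ± 0.27, adjusted p = 3.27e-06; 1.68 without GC078612). Spp1 was named among genes whose groups did not overlap, and GC078612 stood far above the other ARLmon libraries. All 10 higher genes had their highest ARLmon value in that library, and the list's count of 11 was 7 without it and 5 without both GC078612 and GC078615. The lower member was the cytokine gene Il34 (39.4 ± 4.75 to 8.69 ± 3.86 CPM, -2.20 ± 0.25). The apolipoprotein gene Apoe was at 80.1 ± 16.8 against 404 ± 135 CPM (2.33 ± 0.22). Under vehicle no injury gene was higher and 3 of 23 were lower, 13% of the list against 2.38% of all tested genes. The list's summed level with testosterone was 1370 to 1973 CPM in wild type and 3049 to 9388 in ARLmon (to 3936 without GC078612). With vehicle it was 2366 to 5568 CPM in wild type and 3598 to 4311 in ARLmon. Wild type with testosterone was thus the group with the lowest sums.

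Of 34 cell cycle and DNA replication genes 13 were higher and 2 lower (44.1% called against 31.1% of all tested genes, median 0.57). Without both GC078612 and GC078615 10 were called. The list's sums overlapped, at 339 to 451 CPM in wild type and 405 to 459 in ARLmon with testosterone. Under vehicle 0% of the list was called, against 4.37% of all tested genes. The mitotic kinase gene Cdk1 was low, at 0.995 ± 0.410 CPM in wild type and 2.86 ± 0.600 in ARLmon (1.47 ± 0.29, adjusted p = 0.00066). The lower members were the replication licensing gene Mcm6 (34.2 ± 5.17 to 19.3 ± 1.88 CPM, -0.82 ± 0.11) and the spindle gene Nusap1 (-1.26 ± 0.24). Among nonrenal tissues, the liver marker list had 2 higher and 2 lower of 5 tested genes and its sum was 136 to 157 CPM in wild type and 48.1 to 82.0 in ARLmon, mostly Ttr. The adrenal genes Cyp11b1 and Nr5a1 had no reads in either testosterone group, and no gene of red blood cells was called. Of 12 fat cell genes 2 were higher, 16.7% and so near the 15.6% of all tested genes.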

How the data were processed

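Kidney mRNA was sequenced on an Illumina HiSeq instrument from stranded TruSeq libraries, per the labels' protocols. FastQC 0.11.7, HISAT2, SAMtools 1.5, HTSeq (listed as 2.7.14), DESeq2 and mm10 appear in the submitters' processing notes. The authors deposited raw read counts per gene in tables of paired groups and a table of log2 expression values, whose making is not given in the sources used here, nor are the annotation and the strand setting of the counting.

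The count tables were joined into 24762 genes by 20 libraries, and 12045 values of genes absent from a pair's table (1713 genes) were set to 0. Library columns were mapped to groups by name. No libraries of a group were identical (smallest chi-square per degree of freedom 5.23).

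edgeR 4.0.16 (R 4.3.3) fitted 4 group means by quasi-likelihood after filterByExpr and TMM scaling, with Benjamini-Hochberg adjusted p below 0.05 as the threshold and a prior count of 2 for log2 values. On simulated counts of 15330 genes for this comparison, 41.8%, 77.6% and 95.5% of genes changed 1.5-, 2- and 4-fold were recovered, with 8 false calls. Far fewer genes were changed in the simulation than were called in the data, so these shares hold for that setting only. Alternatives were DESeq2 1.42.0, limma 3.58.1 (voom, and on the deposited log2 values), other scalings, filters and leaving out libraries. Positions came from GENCODE M21 for 95.2% of tested genes.

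Named genes were Kap and Odc1, and genes called without overlap at a mean of at least 5 CPM: the 10 largest log2 differences each way, the 5 smallest p, the 5 largest CPM differences each way and the 4 largest each way of each class. Up to 4 called members of each of 51 lists with the smallest p were added, with members that went against their list's majority. Some genes that the rule names are not reported here. Members and lists were chosen with earlier results of these data known. Total counts limit precision as given per group, and intervals cover counting error only.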

Additional observations from a re-analysis of the deposited data

Results flagged for a closer look

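Of 104 gene and group combinations searched for a library apart from the other 4 of its group (Dixon's test), 15 had one, where chance gives about 5%. In wild type with testosterone, GC078611 was highest for Cyp2b10 (87.84 CPM), Slc7a12 (5.942), Cyp4a14 (238.1), Cish (41.1) and Asb11 (23.37) and lowest for Cndp2 (2123) and Slc41a1 (32.88), and GC078610 was highest for Slc7a13 (1265). In ARLmon with testosterone, GC078615 was highest for Prlr (323.1), Slc7a12 (203.9), Hao2 (1361), Ctxn3 (0.6589) and Cntnap5a (0.05068, which is 1 read). GC078612 was highest for Spp1 (6924 CPM) and lowest for Asb11 (0.8895).

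The genotype difference differed between testosterone and vehicle, by the interaction test, in 741 genes (4.77%). Among genes lower in ARLmon with testosterone the interaction was -1.759 for Kap, -2.974 for Odc1, -5.578 for Ctxn3, -6.274 for Lipo2, -4.651 for Rnf180, -3.456 for Col6a6, -2.57 for Vwa1, -2.08 for Slc18a1 and -0.58 for Slc41a1. Among higher genes it was 4.456 for Slc7a12, 2.738 for Hao2, 3.115 for Kcnip2, 2.606 for Abcb1b, 1.381 for Agt, 1.806 for Ces2e and 1.518 for Mettl21b.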

How the results depend on the processing

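No paired analysis was possible because the library columns carry no replicate number of the labels. The count of 4842 genes was 4812 with RLE factors, 5119 by DESeq2, 4484 by voom, 4397 without a filter and 5411 on the testosterone libraries alone, and ran from 3947 (without GC078610) to 5261 (without GC078604). With library size as the only scaling 5690 genes were higher, 1213 lower, and 848 fell in the class with a called interaction and no vehicle call. By limma on the deposited log2 values 7528 were called, 6101 higher and 1427 lower, 6101 passed neither further test, and Gstp2 turned to 0.1542. Tested against a minimum log2 change of 1, 345 genes were called (96 higher, 249 lower), with 57 under vehicle and 76 interactions, and classes of 49 (same sign), 64 (interaction), 0 (opposite sign) and 232 (neither). The opposite-sign class held 11 genes by DESeq2, 3 without GC078612 and GC078615, and 4 (without GC078603) to 13 (without GC078604) with single libraries left out. Vehicle calls ran from 413 (without GC078605) to 1211 (without GC078604) and the same-sign class from 368 to 890 with the same libraries; the cause was not tested. Interaction calls upwards numbered 221, and 144 without GC078610.

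Of 8535 values of named genes under the alternatives, 8009 kept direction and side of the threshold, 524 lost the call, 1 gained it and 1 reversed. With 1 library left out, 47 of the 267 named genes lost the call under at least 1 such setting. Of those in the text these were Agmat, Gstp2, Ndufv1, Slc22a13, Slc41a1 and Vdr. Mettl21b, chosen after its values were seen, was not among the 267. The bound for Cyp2b10 without single libraries, an alternative chosen after seeing the data, ran from 301-fold to 865-fold. List medians that turned positive with library size as the only scaling included polyamine metabolism (0.17), Cyp genes (0.01), acyl-CoA synthetases (0.17), antioxidant genes (0.02) and renin-angiotensin genes (0.13). The median over all tested genes was then 0.28. In the simulation, which changed far fewer genes than were called in the data, 1.5-fold changes were recovered in under 50% of cases.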
